A study of Mus musculus with 12 samples.

Results

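Dppa2, Dppa3, Dppa4, Dppa5a, Khdc3, Ooep, Morc1 and Triml1 are 8 genes known from the egg, the early embryo, germ cells and pluripotent stem cells, and they were followed here on arrays of mouse embryonic stem (ES) cells. They were chosen by name, with their difference between the groups already known, out of 21179 genes that the array names, and 11 probes measure them: 5 genes have 1 probe and 3 have 2. The series held total RNA from 3 samples of undifferentiated ES cells and 3 samples of ES cells kept for 3 days in retinoic acid, a vitamin A derivative that drives ES cells out of pluripotency, with 2 technical arrays per sample. The series itself was about acetylation of histone H4 during differentiation and holds expression only. The ES cell line, its strain, the culture medium, the use of feeder cells and the dose of retinoic acid are not given in the sources used here. The 3 samples of a group are described as biological replicates, without saying whether they were separate cultures or days, so every p-value measures only the spread between these samples.

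The 8 genes fall into several protein families. Dppa2 and Dppa4 are nuclear proteins with a SAP domain that bind chromatin together and are required for the switch-on of genes of the 2-cell embryo. Dppa3 (Stella) is stored in the egg, where it protects the maternal genome from loss of DNA methylation, and it binds the methylation cofactor Uhrf1. Dppa5a (Esg1), Khdc3 (Filia) and Ooep (Floped) are related KH-domain proteins, and the last 2 named belong to the subcortical maternal complex beneath the egg's surface, which the first cleavages need. Morc1 is an ATPase of the MORC family that silences transposons in male germ cells, and Triml1 is a TRIM-like protein known from the embryo before implantation.

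Levels are log2(net intensity + 50) after quantile normalization, given as the mean ± SD of 3 samples. A difference is the retinoic acid mean minus the undifferentiated mean on that scale, with the standard error (SE) of the fit. A fold is computed without the added 50. The depth of an array is set by its brightness: median net intensity was 37.4 to 96.6 per array, and 53.8% to 85.0% of probes exceeded the array's background limit, the 95th percentile of its negative control spots. Marker genes were set against the labels first. All 8 pluripotency markers checked were called lower after retinoic acid, with Pou5f1 at -4.72 ± 0.48 (adjusted p = 0.000285, limma) and Esrrb at -4.86 ± 0.14 (adjusted p = 1.78e-06, limma). Of 8 genes of the retinoic acid response, 5 were called higher, led by Cyp26a1, which degrades retinoic acid, at 8.04 ± 0.18 (adjusted p = 1.18e-06, limma). The other 3 did not rise: Hoxb1 differed by -0.48 ± 0.69, Stra6 by -0.27 ± 0.53 and Rarb by -0.27 ± 0.24. None of these 3 was called (adjusted p = 0.647, 0.751 and 0.451, limma), and their undifferentiated means were already 9.91, 11.95 and 12.40.

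Retinoic acid samples held less RNA of the 8 genes than undifferentiated samples did, with a median difference of -3.54 against 0.0035 for all 15326 genes tested. The 3 retinoic acid samples lay below the 3 undifferentiated samples in 8 of 8 genes and in 10 of 11 probes. The same order was found in 20.8% of all genes tested, and the opposite order in 25.7%. At an adjusted p under 0.05 in limma, 32.3% of all genes tested were called, 13.6% lower and 18.7% higher. These calls depended on scaling, with 2872 higher and 2083 lower under quantile normalization, 2446 and 2644 when arrays were scaled to their 75th percentile, and 2383 and 2238 when scaled to their median. Without retinoic acid replicate 1 or 3 the lower calls numbered 1326 and 1228. In the fit with quantile normalization and no sample left out, 7 of the 8 genes lay past the threshold as lower, 0 as higher, and 1, Dppa5a, short of it. A difference of -3 or below, an 8-fold lower level, was found in 5 of the 8 genes and in 0.535% of all genes tested. Because the genes were chosen on this contrast, these counts are a description and nothing is read from them. In bulk RNA, fewer cells of a type and less RNA per cell cannot be told apart.

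**Figure D1:**
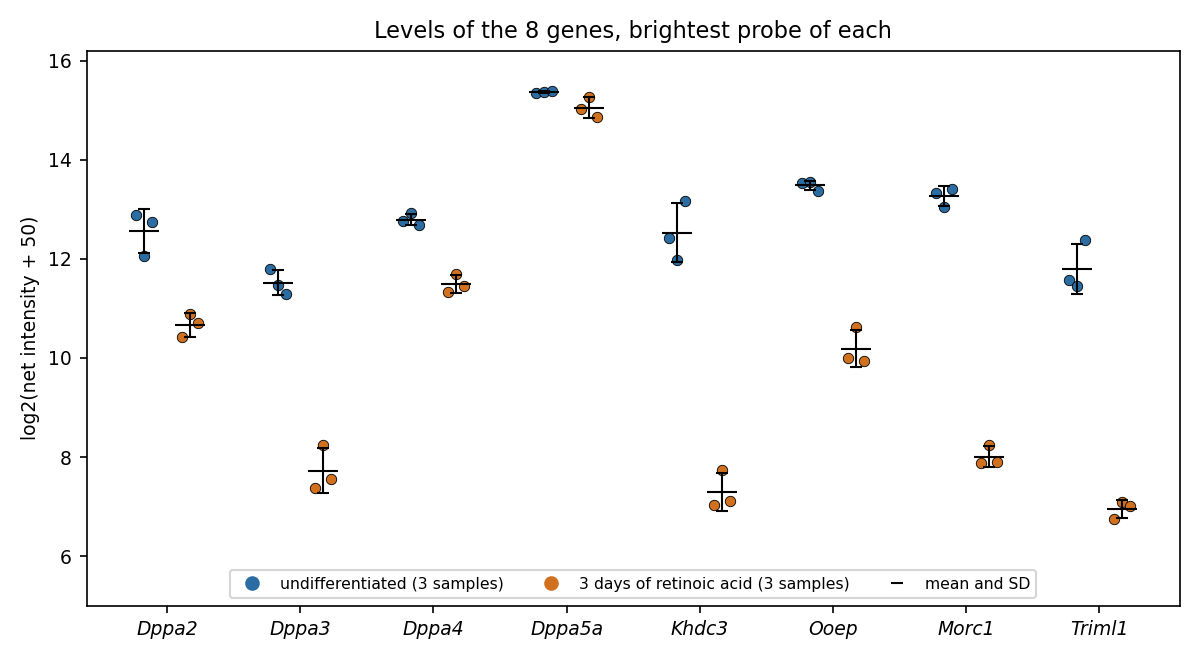
Log2(net intensity + 50) of the brightest probe of each of the 8 genes, with 1 point per sample and the mean and SD of each group of 3 samples. The retinoic acid samples lie below the undifferentiated samples for each gene, with differences from -0.32 for Dppa5a to -5.26 for Morc1.

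The SAP-domain pair had the smallest differences after Dppa5a. Dppa2 measured 12.88, 12.06 and 12.74 in the undifferentiated samples and 10.41, 10.89 and 10.70 in the retinoic acid samples. The groups were apart by more than their inner spread, with means of 12.56 ± 0.44 and 10.67 ± 0.24, a difference of -1.89 ± 0.25 and a 3.80-fold lower level. Dppa4, its binding partner, measured 12.77, 12.92 and 12.69 and then 11.33, 11.70 and 11.45. Its groups did not overlap either, and the means of 12.79 ± 0.12 and 11.49 ± 0.19 differ by -1.30 ± 0.16, a 2.49-fold lower level. After 3 days in retinoic acid both probes were still above the background limit on 6 of 6 arrays.

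Genes of the 2-cell stage, the class that Dppa2 and Dppa4 help to switch on, were called in few cases. Of 17 genes listed, 11 were tested, 0 were called higher and 1 lower, with 10 not called and a median difference of 0.34; without undifferentiated replicate 3, 5 were called higher, and without replicate 2, 3 lower. Zscan4c, a marker of the rare 2-cell-like state of ES cells, measured 9.05, 7.67 and 10.85 undifferentiated and 10.19, 11.78 and 10.22 in retinoic acid. The undifferentiated samples spread so widely (SD 1.59) that the difference of 1.54 ± 0.77 did not pass (adjusted p = 0.17, limma), although it passed at 2.37 without undifferentiated replicate 3 (adjusted p = 0.023, limma). The other 4 called higher without that sample were Usp17la, Tcstv1, Tcstv3 and Zfp352. Pramel7, an embryo gene of the PRAME family, was the 1 gene called lower, at -0.97 ± 0.29 (adjusted p = 0.0369, limma). That call was lost without undifferentiated replicate 1 (-0.93) or replicate 3 (-0.71) and without retinoic acid replicate 1 (-0.93) or replicate 3 (-0.89). Several of these families consist of near-identical copies that a probe may not tell apart, so the identity of the copy measured is uncertain.

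Dppa3, the maternal guard of DNA methylation, measured 11.79, 11.47 and 11.30 in undifferentiated samples and 7.38, 8.24 and 7.56 in retinoic acid samples. Every undifferentiated sample was above every retinoic acid sample by more than 3 log2 units. The means were 11.52 ± 0.25 and 7.72 ± 0.46, the difference was -3.80 ± 0.25, and the level was 18.1-fold lower. Its retinoic acid samples spread the most of the 8 genes, with replicate 2 the highest.

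Of 11 partners and relatives of the methylation machinery, all were tested, 2 were called higher, 4 lower and 5 not, with a median of -0.67. Zfp57, which holds methylation at imprinted genes, was lower by a difference of -2.93 ± 0.56 (adjusted p = 0.00572, limma). Tet1, an enzyme that oxidizes methylcytosine, differed by -2.67 ± 0.25 (adjusted p = 0.000204, limma). Dnmt3l, the cofactor of new methylation, differed by -2.21 ± 0.32 (adjusted p = 0.00161, limma), and Dnmt3b, a methyltransferase, by -1.80 ± 0.27 (adjusted p = 0.00192, limma). Tet3, the member of the TET family known from the egg, was called higher at 2.27 ± 0.26 (adjusted p = 0.000491, limma), but its second brightest probe gave -0.06. Uhrf2 was called higher at 0.93 ± 0.16 (adjusted p = 0.00363, limma), and its second brightest probe at 0.58 was not. Uhrf1, the protein that Dppa3 binds, differed by -0.67 ± 0.32 and the maintenance enzyme Dnmt1 by 0.25 ± 0.23, and neither passed (adjusted p = 0.15 and 0.469, limma), although Uhrf1 did at -1.04 when arrays were scaled to the 75th percentile.

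Dppa5a stood at the top of the arrays' range in undifferentiated cells. Its brighter probe measured 15.36, 15.38 and 15.39 undifferentiated and 15.02, 15.27 and 14.87 in retinoic acid. The dimmer probe measured 15.29, 15.33 and 15.16 and then 14.28, 14.77 and 14.12. Neither probe's groups overlapped, but the size of the difference depended on the probe: -0.32 ± 0.16 (1.25-fold lower) for the brighter and -0.87 ± 0.18 (1.83-fold lower) for the dimmer. On the undifferentiated arrays the brighter probe reached 91.9% to 95.1% of the array's brightest spot, at net intensities of 40223 to 45981, and the dimmer probe 88.1% to 92.2%. On the retinoic acid arrays the shares were 55.2% to 87.2% and 32.1% to 56.4%. The deposited columns used here carry no saturation flag, so the part that a ceiling of the scanner has in these differences was not tested. The undifferentiated SD of the brighter probe, 0.016, was the smallest of the 8 genes.

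**Figure D2:**
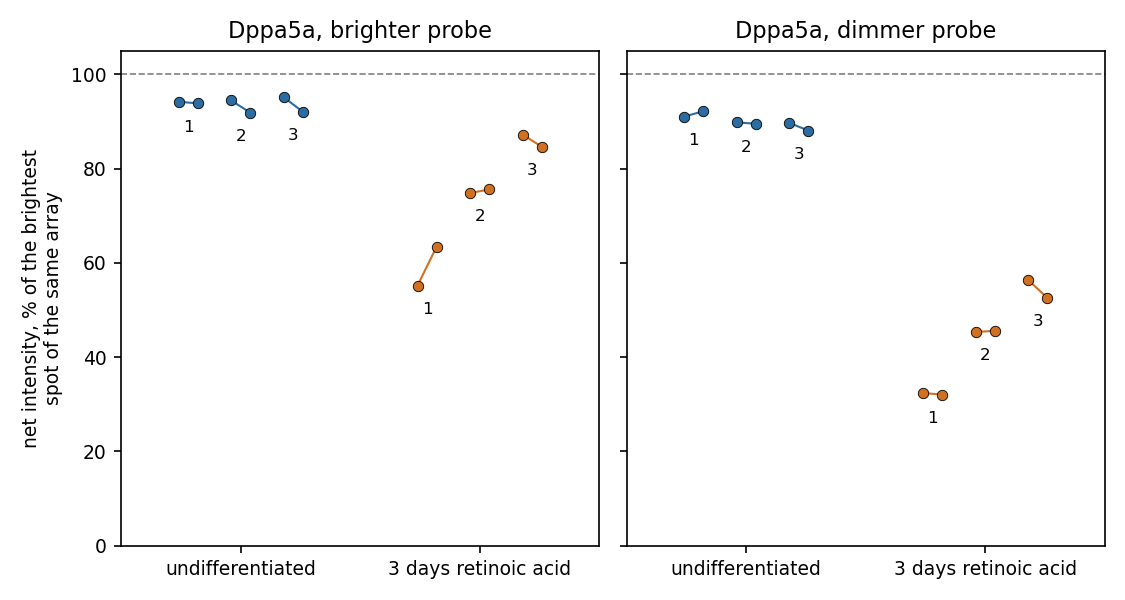
Net intensity of the 2 Dppa5a probes as a percent of the brightest spot of the same array, with 1 point per array, technical arrays of a sample joined by a line and the replicate number beneath. The undifferentiated arrays of both probes lie at 88.1% to 95.1%, close to the dashed line of the brightest spot, and all retinoic acid arrays lie lower.

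Khdc3 and Ooep, the genes of the subcortical maternal complex among the 8, were brightly measured in undifferentiated cells. Khdc3, which the array names by its RIKEN clone symbol 2410004A20Rik, measured 12.42, 11.98 and 13.16 undifferentiated and 7.04, 7.74 and 7.11 in retinoic acid. Its undifferentiated samples had the widest spread of the 8 genes (12.52 ± 0.60), and the retinoic acid samples (7.30 ± 0.39) lay far below the lowest of them. The difference was -5.23 ± 0.32, a 55.3-fold lower level. Ooep measured 13.53, 13.54 and 13.37 and then 9.99, 10.63 and 9.94. With means of 13.48 ± 0.09 and 10.19 ± 0.38 the difference was -3.29 ± 0.21, a 10.2-fold lower level, and its retinoic acid arrays still held net intensities of 791 to 1625.

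The partners of Khdc3 and Ooep in the egg were called in both directions. Of 7 complex members and interacting genes, 6 were tested, 1 was called higher, 1 lower and 4 not, with a median of -0.16. Tle6, a core subunit, was higher at 0.86 ± 0.23 (adjusted p = 0.0244, limma), a call lost without undifferentiated replicate 1 (0.82) or 3 (0.77) and without retinoic acid replicate 2 (0.63) or 3 (0.93). Nlrp4f was lower at -1.21 ± 0.31 (adjusted p = 0.0193, limma), a call lost without retinoic acid replicate 1 (-1.20) or 3 (-1.17). Nlrp5 (Mater), the scaffold of the complex, exceeded the background limit on 3 of 6 undifferentiated and 0 of 6 retinoic acid arrays, too few to be tested. Padi6, which builds the egg's cytoplasmic lattices, differed by -0.19 ± 0.14, Zbed3 by -0.13 ± 0.37, Nlrp2 by 0.28 ± 0.17 and Nlrp14 by -0.42 ± 0.17, with adjusted p-values of 0.367, 0.833, 0.265 and 0.0939 in limma. With 1 in place of 50 added before log2, Nlrp14 passed at -1.07 (adjusted p = 0.0306, limma). Padi6, Zbed3 and Nlrp14 were dim too. They exceeded the background limit on 4, 6 and 5 of 6 undifferentiated and 3, 4 and 3 of 6 retinoic acid arrays.

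Among 19 other oocyte genes, 16 had a probe and 8 were tested, with 1 called higher, 2 lower and 5 not, and a median of -0.40; without undifferentiated replicate 2, 4 were called lower. Zp3, a coat protein of the egg, was lower at -2.71 ± 0.34 (adjusted p = 0.000812, limma), and its second probe gave -2.38. Oas1d was lower at -0.79 ± 0.15 (adjusted p = 0.00511, limma). Zar1, an RNA-binding protein of the egg, was higher at 0.71 ± 0.15 (adjusted p = 0.00844, limma), above background on 2 of 6 undifferentiated and 6 of 6 retinoic acid arrays. Gdf9, a growth factor made by oocytes, stood at 6.47 ± 0.25 and 6.51 ± 0.18. Summed over the 7 oocyte markers, net intensity after quantile normalization was 560 to 1368 per undifferentiated sample and 180 to 221 per retinoic acid sample. Zp3 carried most of the undifferentiated sums: the other 6 markers summed to 156 to 216 and then 117 to 143. Of these, Gdf9, Figla and Nobox were tested and not called, and Zp1, Zp2 and Bmp15 were too dim to be tested. Bmp15 and Zp2, which define oocytes, exceeded the background limit on 1 of 6 undifferentiated arrays each, and on 2 and 1 of 6 retinoic acid arrays.

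Morc1 and Khdc3 had nearly equal differences, and their order turned with the added value (with 1 added before log2, -5.56 for Morc1 and -5.78 for Khdc3). Morc1 measured 13.33, 13.04 and 13.42 undifferentiated and 7.88, 8.25 and 7.90 in retinoic acid. Both groups were tight, at 13.26 ± 0.20 and 8.01 ± 0.21, and the difference was -5.26 ± 0.18, a 47.3-fold lower level. The gene's dimmer probe, annotated to a full-length cDNA clone, measured 5.95, 5.84 and 6.08 and then 5.88, 5.69 and 5.90. It was above background on 1 of 6 undifferentiated and 0 of 6 retinoic acid arrays, its groups overlapped, and it is the 1 probe of the 11 without that order.

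Triml1 measured 11.56, 11.44 and 12.37 undifferentiated and 6.76, 7.10 and 7.01 in retinoic acid. Undifferentiated replicate 3 was the highest, and the means of 11.79 ± 0.50 and 6.95 ± 0.18 differ by -4.84 ± 0.26, a 47.7-fold lower level. Its dimmer probe measured 7.06, 6.99 and 9.03 undifferentiated and 6.36, 5.79 and 5.93 in retinoic acid, a difference of -1.67 ± 0.56. It was above background on 6 of 6 undifferentiated and 1 of 6 retinoic acid arrays. That 1 array, of retinoic acid replicate 1, held a net intensity of 71.0, and its sister array held 4.89. Technical arrays of a sample differed by up to 1.10 for this dimmer probe, the most of the 11 probes. Both probes placed undifferentiated replicate 3 highest.

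**Figure D3:**
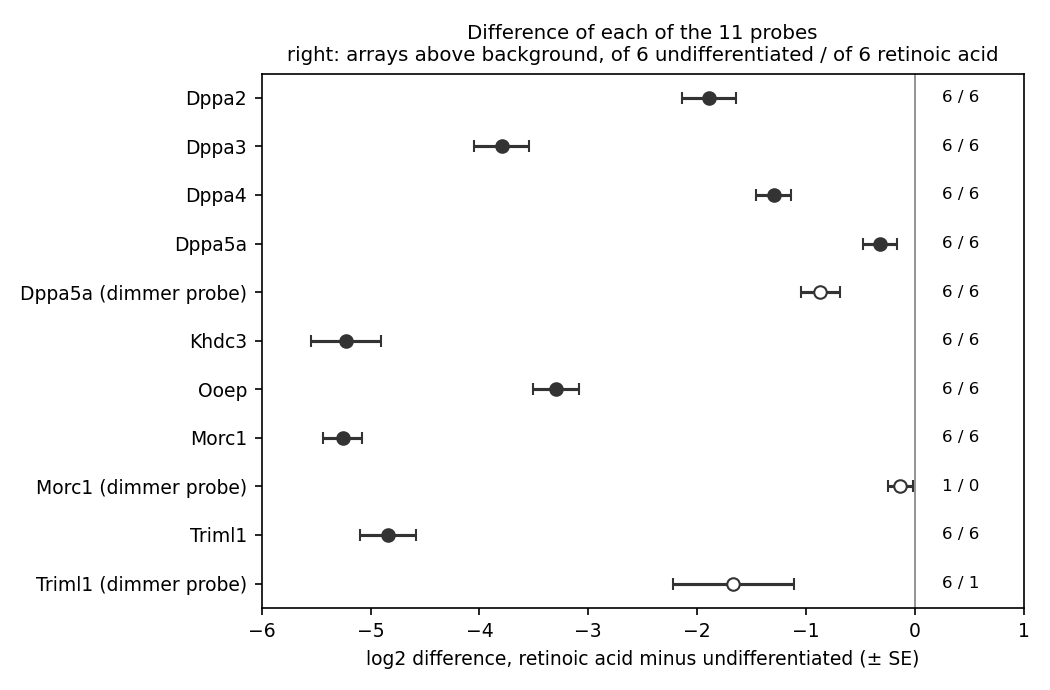
Difference on the log2 scale (retinoic acid minus undifferentiated, bars ± SE) of all 11 probes, filled for a gene's brightest probe and open for its dimmer one, with the number of arrays above background at the right. The open point of Morc1 lies near 0 at -0.13 and was above background on 1 of 6 undifferentiated arrays, whereas its brightest probe lies at -5.26.

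Relatives of the 8 genes by sequence or by name were mostly dim. Of 9 listed, 8 had a probe and 3 were tested, with 1 called higher, 1 lower and 1 not and a median of -0.10. Morc4, of the same ATPase family as Morc1, was higher at 1.21 ± 0.21 (adjusted p = 0.00383, limma), but its second brightest probe gave -0.16. Morc3 was lower at -0.69 ± 0.16 (adjusted p = 0.0133, limma) and at -0.74 on its second probe, a call lost without retinoic acid replicate 1 (-0.67) or 3 (-0.66). Morc2a differed by -0.10 ± 0.20 (adjusted p = 0.759, limma). Morc2b, Dppa1, Khdc1a, Khdc1b and Khdc1c stayed under the filter in both groups, and Triml2 has no probe here.

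Of 16 germ cell genes, 15 were tested, with 2 called higher, 6 lower and 7 not, and a median of -0.57. Tfap2c, a transcription factor of primordial germ cells, differed by -3.08 ± 0.29 (adjusted p = 0.000198, limma). Sycp3, of the meiotic chromosome axis, differed by -2.83 ± 0.24 (adjusted p = 0.00011, limma), and Hormad1, of the same axis, by -1.65 ± 0.27 (adjusted p = 0.00289, limma), with -0.73 on its second probe. In the other direction Tdrd1, which acts with piRNAs, was higher at 1.71 ± 0.29 (adjusted p = 0.00344, limma), although its second probe at 1.07 did not pass. Ddx4, a germ line helicase, was higher at 0.86 ± 0.18 (adjusted p = 0.00751, limma). Dazl, a germ cell RNA-binding protein, stood at 9.17 ± 0.59 and 9.01 ± 0.27 and did not pass (adjusted p = 0.733, limma). Across all these lists, 7 of 54 genes tested were called higher and 15 lower, beside 18.7% and 13.6% of all genes; without undifferentiated replicate 3, 11 were called higher.

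Promoter sequences were at hand for Khdc3, Ooep and Triml1, which are among the 5 genes with the 8-fold or greater difference, and they are shown so that the differences can be read beside the DNA upstream. Each is the 250 bases before an annotated start in RefSeq (GRCm38.p6), read 5′ to 3′ on the gene's strand, with any match to the motifs searched in capitals. The windows are chr9:73102148-73102397 (plus strand) for Khdc3, chr9:78378589-78378838 (minus strand) for Ooep and chr8:43141487-43141736 (minus strand) for Triml1.
Khdc3: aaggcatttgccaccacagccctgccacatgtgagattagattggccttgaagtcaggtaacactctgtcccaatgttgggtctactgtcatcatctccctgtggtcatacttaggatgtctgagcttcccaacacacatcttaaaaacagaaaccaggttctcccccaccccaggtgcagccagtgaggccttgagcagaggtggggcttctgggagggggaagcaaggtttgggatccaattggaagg
Ooep: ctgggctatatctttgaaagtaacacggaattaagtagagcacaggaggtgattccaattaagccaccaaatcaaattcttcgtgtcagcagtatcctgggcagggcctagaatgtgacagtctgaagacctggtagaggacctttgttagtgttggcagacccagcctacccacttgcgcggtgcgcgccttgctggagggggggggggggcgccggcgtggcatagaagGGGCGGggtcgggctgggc
Triml1: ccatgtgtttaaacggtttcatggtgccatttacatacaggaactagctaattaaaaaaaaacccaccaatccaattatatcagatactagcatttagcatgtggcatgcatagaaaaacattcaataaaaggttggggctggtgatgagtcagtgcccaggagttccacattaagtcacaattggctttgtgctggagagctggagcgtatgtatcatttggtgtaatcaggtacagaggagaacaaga
The 5 motifs, searched on both strands, were the octamer ATGCAAAT bound by Pou5f1 (in 1.6% of 32851 RefSeq windows of the same length), the E-box CACGTG (6.02%), the Esrrb site AAGGTCA (4.08%), the GC box GGGCGG (32.7%) and the direct repeat of the retinoic acid receptor (0.00913%). The repeat is AGGTCA given again after 5 bases, so its units overlap the Esrrb site. The 1 match found was a GC box in Ooep, whose 5′ end lies 19 bases before the start. Khdc3 and Triml1 held 0 matches in these windows.

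The 3 windows differed in CG pairs, the dinucleotide that DNA methylation acts on. The Ooep window held 11, more than 64.4% of windows, and its GC content was 57.2%. The Triml1 window held 2, more than 18.8% of windows, with a GC content of 40.4%. The Khdc3 window held 0, as 7.87% of windows did, with a GC content of 52.4%. The median window held 6. The Khdc3 and Triml1 levels differed by -5.23 and -4.84 and that of Ooep by -3.29; with 3 windows no relation was computed.

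The 8 genes sit at 5 places in the genome, and several lie side by side. In the RefSeq gene order (GRCm38.p6), Dppa4, Dppa2 and Morc1 are consecutive protein-coding genes on chromosome 16, and Dppa5a and Ooep are neighbours on chromosome 9. Khdc3 lies elsewhere on chromosome 9, Dppa3 on chromosome 6 and Triml1 on chromosome 8. Sources used here do not state the array's own build. The 3 nearest protein-coding genes on either side, outside the 8, numbered 30, of which 25 had a probe and 17 were tested. Of these 7 were called lower, 0 higher and 10 not, beside 13.6% lower and 18.7% higher among all genes, and their median was -0.55.

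**Figure D4:**
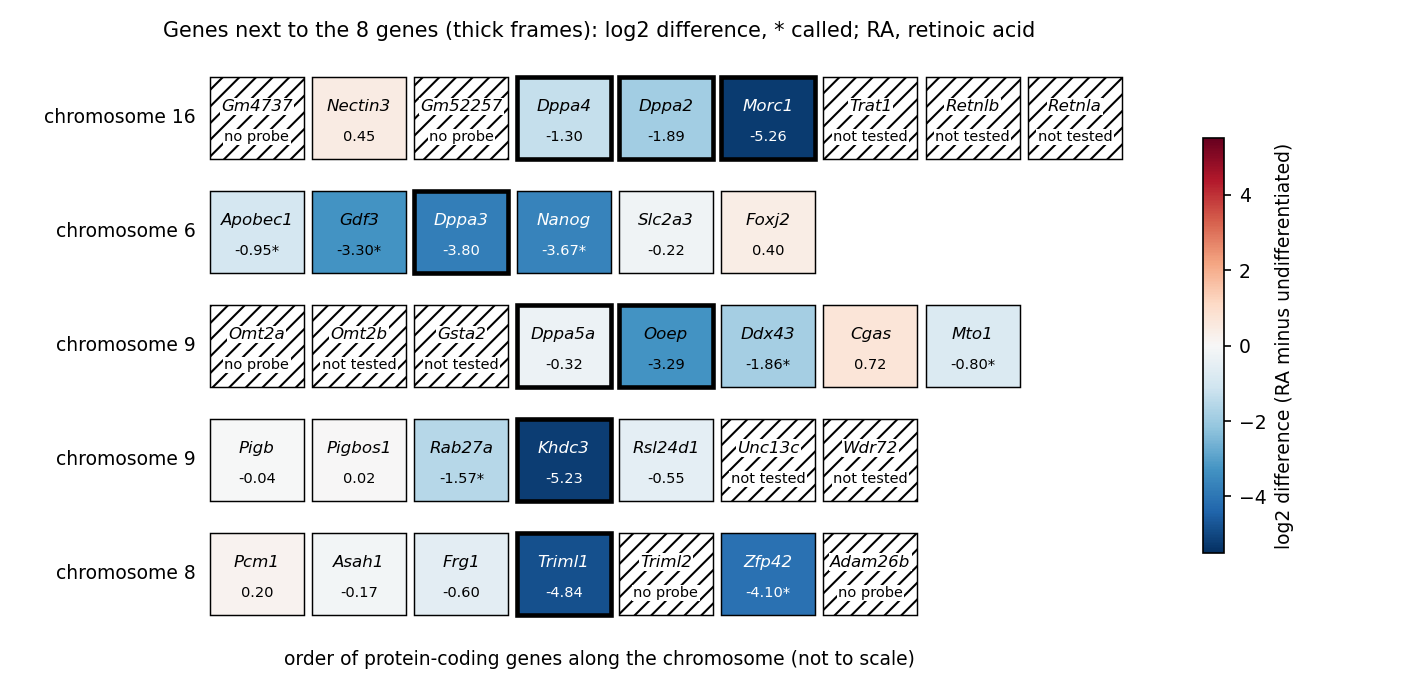
Order of protein-coding genes around the 8 genes (thick frames), coloured by the log2 difference (retinoic acid minus undifferentiated), with stars for called neighbours and hatching for genes not tested or without a probe, and 1 of the 30 neighbours left out of the drawing. Strong negative differences flank Dppa3 (Gdf3 at -3.30, Nanog at -3.67). Zfp42, past Triml2 from Triml1, is at -4.10, while Frg1 on the other side of Triml1 is at -0.60 and was not called. Nectin3 beside Dppa4 is at 0.45.

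The neighbours of Dppa3 and Triml1 with the strongest change were themselves genes of pluripotent cells. Nanog, a core pluripotency factor next to Dppa3, measured 13.26, 13.76 and 13.83 and then 9.84, 10.32 and 9.69. It fell with retinoic acid, with a difference of -3.67 ± 0.23 (adjusted p = 3.51e-05, limma) and groups that did not overlap. Gdf3, a TGF-beta family ligand on the other side of Dppa3, fell likewise, at -3.30 ± 0.23 (adjusted p = 4.77e-05, limma). Apobec1, an RNA-editing deaminase, fell by less, at -0.95 ± 0.25 (adjusted p = 0.0228, limma), a call lost without retinoic acid replicate 1 (-0.83) or 3 (-0.89). A second probe of Apobec1, above background on 3 and 2 of 6 arrays, gave -0.18. Slc2a3 and Foxj2, farther along, differed by -0.22 ± 0.21 and 0.40 ± 0.19 and did not pass (adjusted p = 0.476 and 0.16, limma). The second brightest probe of Slc2a3 did pass, at -0.70 (adjusted p = 0.00926, limma).

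Zfp42 (Rex1), a zinc finger protein of pluripotent cells past Triml2 from Triml1, measured 14.63, 14.51 and 14.93 and then 10.72, 10.53 and 10.53. Its difference was -4.10 ± 0.17 (adjusted p = 8.5e-06, limma), and its second probe gave -4.12. On the other side of Triml1, Frg1, Asah1 and Pcm1 differed by -0.60 ± 0.27, -0.17 ± 0.16 and 0.20 ± 0.35, and none of the 3 passed (adjusted p = 0.131, 0.457 and 0.707, limma). Next to Khdc3, Rab27a, a GTPase of vesicle transport, fell at -1.57 ± 0.16 (adjusted p = 0.000293, limma) and by less on its second probe, at -0.70. Rsl24d1, on its other side, narrowly missed at -0.55 ± 0.18 (adjusted p = 0.0512, limma) and passed at -0.84 with arrays scaled to the 75th percentile, while Pigb and Pigbos1 stood near 0 at -0.04 ± 0.17 and 0.02 ± 0.18 (adjusted p = 0.884 and 0.948, limma).

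Around Dppa5a and Ooep, the helicase gene Ddx43 fell at -1.86 ± 0.27 (adjusted p = 0.00161, limma). Mto1, a mitochondrial tRNA modifier, fell at -0.80 ± 0.17 (adjusted p = 0.00949, limma), but its second probe at -0.49 did not pass. Cgas, the sensor of cytosolic DNA, lies between those genes and differed by 0.72 ± 0.31 (adjusted p = 0.118, limma). Beside Dppa4, Dppa2 and Morc1 only Nectin3, a cell adhesion protein, was bright enough to test, and it did not pass (0.45 ± 0.25, adjusted p = 0.216, limma). The block of those 3 consecutive genes is bounded on the Morc1 side by Trat1, Retnlb and Retnla, which were above background on at most 3 of 6 arrays of either group.

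Within the retinoic acid group, replicate 2 held the highest level of the 3 samples in 8 of 8 genes after quantile normalization. Before normalization replicate 3 was the brightest for each of these genes. The brighter Dppa5a probe, for example, held net intensities of 42942 and 41670 in replicate 3 and 33014 and 32871 in replicate 2. On the normalized scale replicate 2 exceeded the mean of replicates 1 and 3 by 0.22 (Triml1) to 0.77 (Dppa3), with a median of 0.35. The excess was 0.66 for both Khdc3 and Ooep, 0.36 for Morc1, 0.34 for Dppa2, 0.33 for Dppa5a and 0.31 for Dppa4. Replicate 2 was also the highest in 51.1% of all genes tested, with a median excess of 0.084. Among genes called lower it was the highest in 60.6%, with a median excess of 0.14, and among genes called higher in 42.2%, with a median excess of 0.025. Without it the median difference of the 8 genes was -3.78. The undifferentiated samples had no such common order, since replicate 2 was the lowest in 4 of the 8 genes and replicate 3 the highest in 4. Technical arrays of a sample differed by at most 0.50 for the brightest probes.

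**Figure D5:**
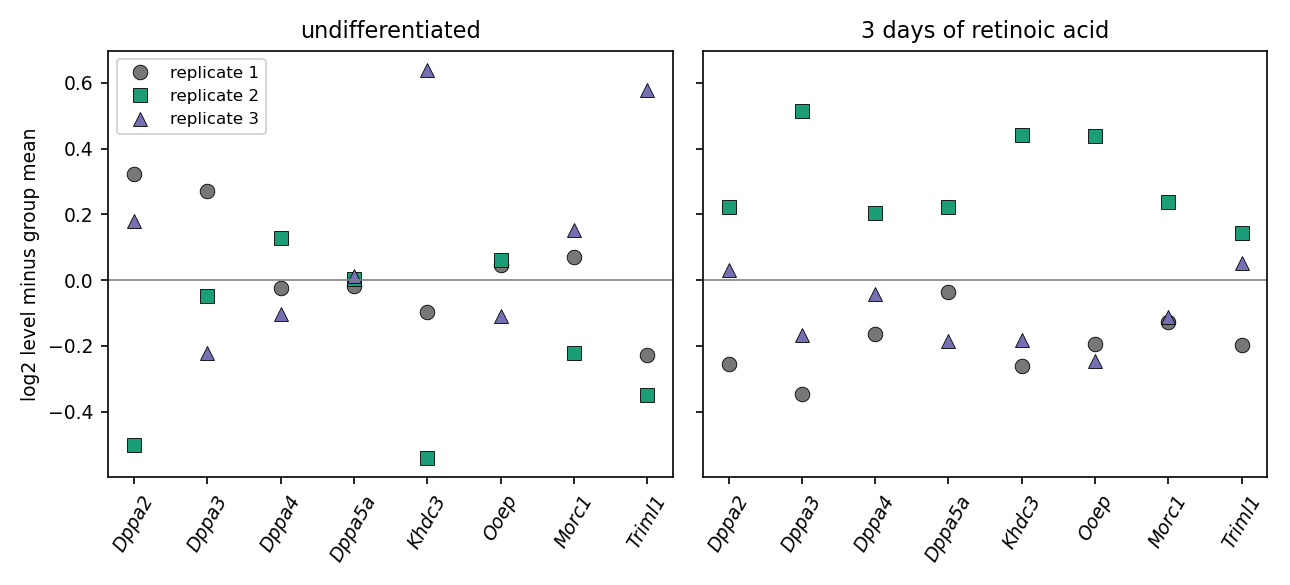
Log2 level of each sample minus its group mean for the 8 genes, with undifferentiated samples at the left and retinoic acid samples at the right, and a symbol for each replicate number. After quantile normalization, retinoic acid replicate 2 is the highest of its group for each gene, by 0.22 to 0.77 above the mean of the other 2 samples.

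Markers of other cells moved with the groups as well. Of 7 fibroblast genes that could mark feeder cells, 4 were called higher and 1 lower after retinoic acid. Their summed net intensity was 5652 to 14591 per undifferentiated sample and 25252 to 31956 per retinoic acid sample. All sums here are of intensities after quantile normalization. Tagln (called higher) and Acta2 (0.91 ± 0.43, adjusted p = 0.142, limma) made up most of these sums, and the other 5 genes summed to 952 to 1123 and then 1925 to 2823. Among those 5, Thy1 was called lower at -2.07 ± 0.17 (adjusted p = 9.02e-05, limma), and Col1a1 at -0.38 ± 0.23 did not pass (adjusted p = 0.262, limma). Of 6 primitive endoderm genes 4 were called higher, with sums of 584 to 925 and then 4887 to 5458. Gata4 at -0.35 ± 0.24 and Pdgfra at -0.25 ± 0.15 did not rise, and neither passed (adjusted p = 0.31 and 0.256, limma). The sums of the 8 pluripotency markers were 73286 to 107782 and then 5822 to 6946. Of 5 germ cell markers 1 was called higher and 2 lower, and their sums of 4984 to 5310 and 4234 to 6195 overlapped. No marker of these 4 lists was below the background limit on all 12 arrays. The part of cell composition in the differences of the 8 genes was not tested.

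The genes whose pattern was most like that of the 8 were found by the root mean square distance between a gene's log2 values, centred over the 6 samples, and the mean centred profile of the 8. The nearest was AU018091 at a distance of 0.087, with a difference of -3.32. Alg13, of protein glycosylation, followed at 0.131 (-3.03), then Irak3, an inhibitor of Toll-like receptor signalling, at 0.156 (-3.10). Manba, a lysosomal mannosidase, was at 0.189 (-3.40) and Tcea3, a transcription elongation factor, at 0.192 (-3.03). These distances describe 6 samples in 2 groups and carry no test.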

How the data were processed

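Net spot intensities of 12 one-colour (Cy3) arrays were used as deposited by the authors: per the file headers, the mean intensity after local background was taken off, on a linear scale. How the background was taken off is something the sources used here do not state. R 2.15.0 and limma are listed in the submitters' processing notes. Each array holds 41174 probes; 94 control and 14 summary entries were left out of the tests. One array, undifferentiated replicate 2, technical array 2, carries the name of its sister array in its header.

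Intensities were quantile-normalized, 50 was added and log2 taken, which understates differences of dim genes. Technical arrays were averaged. A gene was represented by its probe with the highest mean log2 level, named through RefSeq (GRCm38.p6) accessions and symbols. The background limit was the 95th percentile of 27 negative control spots (8.50 to 51.6 per array), and 15326 genes above it on at least 4 of 6 arrays of a group were tested with limma 3.58.1 in R 4.3.3 (lmFit, eBayes, two-sided, Benjamini-Hochberg, adjusted p under 0.05), checked on simulated data. Precision is limited by 3 samples per group.

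The 8 genes and all lists were chosen with earlier results of these data known. The 8 genes stayed in the fit across all genes, and their differences, with their count at the threshold, are a description given without p. The text names every probe of the 8 genes, each tested neighbour, up to 3 called genes per list in either direction, the relatives and maternal complex genes, the markers, and the 5 likest genes; some further genes were named after their values were seen. One neighbour that was not tested is counted but not reported here by name. Alternatives were scaling, the added value, single technical arrays, the authors' processed values, other probes of a gene, the filter, the replicate block, a variance trend, a threshold of 0.01 and leaving out each sample. Replicate numbers were not used to pair the samples, except in the alternative with the replicate block. Promoter windows came from RefSeq and were matched for 3 of the 8 genes. Figures were drawn with matplotlib 3.10.9 in Python 3.11.15.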

Additional observations from a re-analysis of the deposited data

How the results depend on the processing

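No difference of the 8 genes changed sign under 17 alternatives, but some of these could not move it. The replicate block leaves each difference as it was, and the 5 single-probe genes keep their probe in the alternatives with other probes. Because the genes were chosen on this contrast, nothing is read from the kept sign. Their median difference ran from -3.78 to -3.41 as each sample was left out, and was -2.97 with the mean of a gene's probes and -1.78 with the second brightest probe. By gene the alternatives spanned -2.18 to -1.73 (Dppa2), -4.17 to -3.62 (Dppa3), -1.63 to -1.22 (Dppa4), -0.87 to -0.23 (Dppa5a), -5.78 to -4.91 (Khdc3), -3.56 to -3.17 (Ooep), -5.56 to -0.13 (Morc1, second probe) and -5.56 to -1.67 (Triml1, second probe). With arrays scaled to the 75th percentile Dppa5a stood at -0.68.

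Over all genes, an adjusted p under 0.01 left 1784 higher and 1114 lower calls. Leaving out 1 sample gave 2007 to 3148 higher and 1228 to 2108 lower, with 1326 lower without retinoic acid replicate 1 and 1228 without replicate 3. Of the pathway genes 3 were higher with the second brightest probe, and 6 to 11 as each sample was left out, 11 without undifferentiated replicate 3. Tet3 (-0.063) and Morc4 (-0.16) changed sign with the second brightest probe. The cause of these shifts was not tested. Neighbours called lower stayed at 6 to 8 in each alternative run at the threshold of 0.05. Of the 29 called genes among the neighbours and the pathway lists, 6 lost the call without at least 1 sample. Another 18 kept it in each of these alternatives in which they were tested.

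Samples of the same number deviated from their group means with correlations of -0.06, 0.22 and 0.07 over 15326 genes. Undifferentiated replicate 1 correlated best with retinoic acid replicate 3 (0.26), and undifferentiated replicate 2 with retinoic acid replicate 2 (0.22). Before normalization, replicate 3 had the highest median net intensities of each group, 67.0 and 67.3 undifferentiated and 96.6 and 93.5 in retinoic acid. Whether the numbers mark shared batches or pairs was not tested. A fit with the replicate block called 2849 genes higher and 2040 lower, and among the named genes it lost Pramel7 (adjusted p = 0.0658, limma). Net intensities close to the brightest spots limit what can be said of Dppa5a, and signals near the background limit do so for the dimmer probes of Morc1 and Triml1.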
